A study of Homo sapiens with 6 samples.

Results

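The genes described here are CDKN2A, its neighbours CDKN2B and MTAP on chromosome 9p21, and the genes of the early G1 step of the cell cycle that the CDKN2A and CDKN2B proteins act on: the kinases CDK4 and CDK6, the D cyclins CCND1, CCND2 and CCND3, and RB1. They were taken by symbol from the table of gene counts, which held all 9 of them among 16362 genes. CDKN2A was selected on its high CPM in these same libraries, and MTAP as its neighbour, so the level of CDKN2A is given as a description with no test. The cells are labelled MDA-MB-231, a human line from triple-negative breast cancer with mesenchymal features. In 3 libraries the cells had received CTI-2 for 24 h, and in the other 3, called control here, they had received no agent. CTI-2 is a code name, and neither its dose nor a vehicle for the control cells is stated in the labels. RNA was read as cDNA on the Oxford Nanopore platform, and each library gave 2208261 to 3153469 counts with CTI-2 and 2349758 to 3929532 counts without it. Values are given as CPM, the count scaled to a library total of 1000000, and the value of 3 counts was 0.763 to 1.36 CPM, depending on the library.

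In textbook accounts, a cell leaving rest assembles a D cyclin with CDK4 or CDK6, and the active kinase phosphorylates the RB1 protein, which then releases E2F transcription factors that switch on genes of S phase. CDKN2A holds a pair of unrelated products: p16INK4a, which binds CDK4 and CDK6 and blocks them, and p14ARF, which binds the ubiquitin ligase MDM2. CDKN2B encodes p15INK4b, a close relative of p16INK4a with the same targets, and MTAP encodes methylthioadenosine phosphorylase, which returns a by-product of polyamine synthesis to methionine. CDKN2A, CDKN2B and MTAP are often lost together in tumours because they lie side by side. MDA-MB-231 is commonly described as a line that has lost this stretch of 9p21 on each chromosome copy.

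The libraries go against that description. Counts of CDKN2A, CDKN2B and MTAP were present in all 6 libraries, and CDKN2A had 562 to 1011 counts with CTI-2 and 791 to 1737 counts in controls. What the cells are was not tested, and they are called by their label only. The other markers of the label were mixed. Of 20 mesenchymal marker genes, 19 were counted in every library, and their summed level was 5354 to 5557 CPM with CTI-2 and 4877 to 5193 CPM in controls, most of it S100A4, a calcium-binding protein gene, and LGALS1, the galectin-1 gene. VIM, the vimentin gene and a member of this list, was at 14.5 to 16.8 CPM with CTI-2 and 18.3 to 18.9 CPM in controls. VIM overlaps an antisense gene in the annotation. CDH1, the E-cadherin gene of epithelial cells, had 1 count in all 6 libraries together, and ESR1, the oestrogen receptor gene, had 0 to 2 counts per library. Summed levels of 14 luminal and epithelial markers, 11 of which were in the table, were 334 to 362 CPM with CTI-2 and 319 to 332 CPM in controls, most of it KRT18 and KRT8. Markers of blood, endothelial, stromal and liver cells summed to 65.0 to 66.3 CPM with CTI-2 and 59.3 to 90.5 CPM in controls, of which COL1A1 made up most.

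The sequences of the locus show what a count per gene can and cannot separate here. The transcripts of p16INK4a and p14ARF start at different first exons and then share an exon, which each reads in its own frame. Below are the first 60 coding bases of each product, with the start codon in capitals, at chr9:21974768-21974827 for p16INK4a and chr9:21994272-21994331 for p14ARF, read on the minus strand. They come from GENCODE 29 transcripts on GRCh38.
p16INK4a start: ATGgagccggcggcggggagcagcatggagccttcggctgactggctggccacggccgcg
p14ARF start: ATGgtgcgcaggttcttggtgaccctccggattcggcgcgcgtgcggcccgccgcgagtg

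The openings differ, but 206 coding bases are shared, out of 471 coding bases of p16INK4a and 399 of p14ARF. Gene counts sum both products, so every CDKN2A value that follows is for p16INK4a and p14ARF together. The closest relative is CDKN2B, whose coding sequence was 83.0% identical to that of p16INK4a over 411 aligned bases. Their longest identical run was 80 bases. Reads that cover only a part the pair shares could be placed on either gene, so the low count of CDKN2B beside CDKN2A is uncertain to that extent. The other families are further apart: CDK4 and CDK6 were 68.3% identical over their aligned coding bases with no identical run over 16 bases, and pairs of D cyclins were 66.9 to 70.1% identical with no run over 23 bases. CDKN2B-AS1, a long non-coding RNA gene, runs across CDKN2B and overlaps an end of CDKN2A on the opposite strand. It had no row in the table of gene counts, and no source says that strand was used in counting. AL359922.1, annotated as protein-coding, overlaps CDKN2A and CDKN2B on the opposite strand and MTAP on the same strand. It had 1 count in CTI-2 library 3 and 0 counts in every other library. How reads in these overlaps were counted is not stated, so the low counts of CDKN2B and MTAP are uncertain in this way too.

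CDKN2A (chr9:21967753-21995301, minus strand) was by far the most counted gene of its locus. Its level was 321, 293 and 254 CPM in CTI-2 libraries 1 to 3, against 612, 442 and 337 CPM in controls 1 to 3. Every control lay above every CTI-2 library, but the controls were widely spread and control 3 was close to CTI-2 library 1. The 95% exact binomial (Clopper-Pearson) intervals of those 2 libraries, which cover counting error only, were 301 to 341 CPM in CTI-2 library 1 and 314 to 361 CPM in control 3. The mean was 289 ± 33.2 CPM with CTI-2 and 464 ± 139 CPM in controls (SD, n = 3 each). The log2 fold change, CTI-2 minus control, was -0.63 with an SE of 0.198 and a 95% interval of -1.07 to -0.18, and it did not pass the test after adjustment over all genes (edgeR's quasi-likelihood test, adjusted p = 0.0904, unadjusted p = 0.0110). At an unadjusted p under 0.05 stood 23.9% of all 9848 tested genes.

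The call on CDKN2A changed when single libraries were left out. Without control 3 the log2 fold change was -0.83 and passed the test (edgeR, adjusted p = 5.8e-06), and without CTI-2 library 1 it was -0.71 and passed (edgeR, adjusted p = 0.037). Without control 1, the control of highest level, it was -0.40 (edgeR, adjusted p = 0.099). Genes lower after CTI-2 had a median transcript GC content of 55.4%, against 48.9% for all tested genes, and that of CDKN2A was 61.4%. With each library's trend with GC content removed, the log2 fold change of CDKN2A was -0.51 (edgeR, adjusted p = 0.122). In bulk RNA, fewer cells that express a gene and less of its RNA per cell cannot be told apart, here and for each gene that follows.

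**Figure D1:**
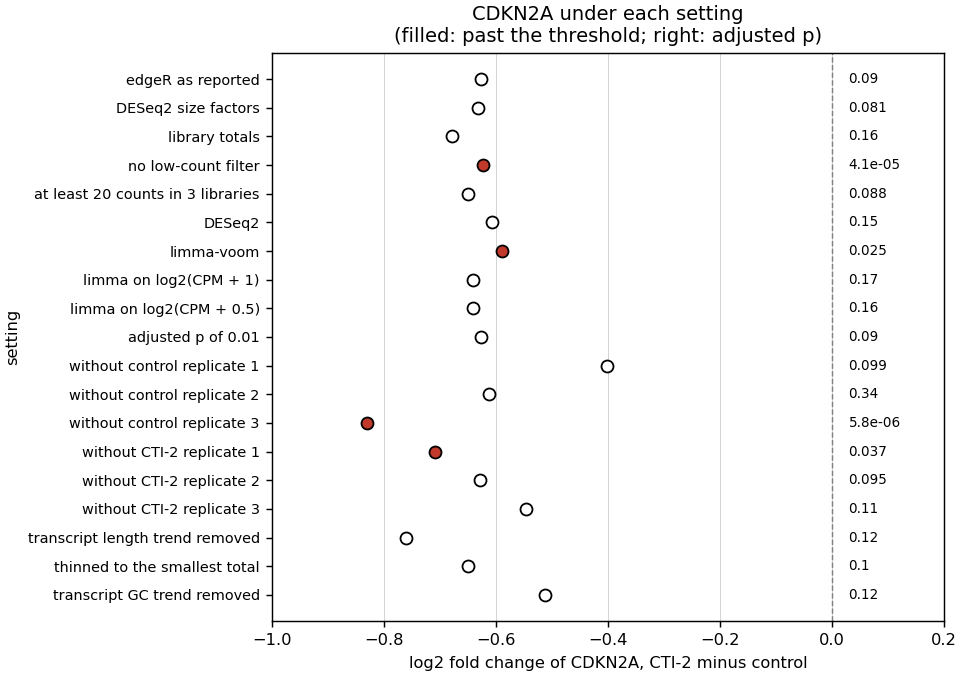
Log2 fold change of CDKN2A, CTI-2 minus control (horizontal axis), under the reported edgeR fit and other settings (rows), with the adjusted p at the right and filled points past the threshold of that setting. All points lie between -0.83 and -0.40, below 0. Of the settings plotted, those with no low-count filter, with limma-voom, without control 3 and without CTI-2 library 1 pass the threshold.

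CDKN2B (chr9:22002903-22009363, minus strand) was an order of magnitude below its neighbour. It had 34, 44 and 31 counts in CTI-2 libraries 1 to 3 and 59, 56 and 33 counts in controls 1 to 3, or 10.8, 14.8 and 14.04 CPM with CTI-2 and 22.7, 14.3 and 14.04 CPM in controls. Control 1 was the highest, and the other 5 libraries lay at 10.8 to 14.8 CPM. The 95% counting interval of control 1, 17.3 to 29.3 CPM, overlapped those of all libraries but CTI-2 library 1, at 7.47 to 15.1 CPM. The log2 fold change of CDKN2B was -0.31, with a 95% interval of -0.77 to 0.14 (edgeR, adjusted p = 0.417). MTAP (chr9:21802543-21937651, plus strand), the metabolic gene of the locus, had 10.8, 11.1 and 19.0 CPM with CTI-2 and 12.3, 12.7 and 14.9 CPM in controls. The groups overlapped throughout, and its log2 fold change was 0.05, with a 95% interval of -0.43 to 0.52 (edgeR, adjusted p = 0.933).

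Within the locus, CDKN2A gave 29.7, 19.8 and 18.1 counts for each count of CDKN2B in CTI-2 libraries 1 to 3, against 26.9, 31.0 and 24.0 in controls 1 to 3. The means were 22.5 ± 6.28 with CTI-2 and 27.3 ± 3.54 in controls (SD, n = 3 each), with overlapping groups (two-sided exact permutation test, p = 0.3). For each count of MTAP, CDKN2A gave 23.2 ± 8.64 counts with CTI-2 and 35.7 ± 13.6 in controls (SD, n = 3 each; exact permutation test, p = 0.3). With 3 against 3 libraries that test cannot give a p under 0.1. Neither ratio therefore separated the groups.

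Of the cyclin-dependent kinases of G1, CDK4 (chr12:57747727-57756013, minus strand) carried nearly all counts. It had 191, 190.4 and 206 CPM in CTI-2 libraries 1 to 3, against 181, 189 and 155 CPM in controls 1 to 3. The CTI-2 libraries were all above the controls, though only by a small margin over control 2. Its log2 fold change was 0.20 with an SE of 0.113 and a 95% interval of -0.03 to 0.43 (edgeR, adjusted p = 0.279). Without control 2 it was 0.32 and passed the test (edgeR, adjusted p = 0.0329). CDK6 (chr7:92604921-92836594, minus strand), the kinase that pairs with the same cyclins, had 6.03, 4.04 and 6.34 CPM with CTI-2 and 5.01, 5.85 and 5.53 CPM in controls. These are 12 to 19 counts with CTI-2 and 13 to 23 counts in controls, and the log2 fold change of 0.02 had a 95% interval of -0.65 to 0.68 (edgeR, adjusted p = 0.982). CDK4 made up 97.3 ± 0.544% of the counts of both kinases with CTI-2 and 96.95 ± 0.378% in controls (SD, n = 3 each), with overlapping groups (exact permutation test, p = 0.5).

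Among the D cyclins, the activating partners of these kinases, CCND3 (chr6:41934933-42050357, minus strand) held nearly all counts. It had 226, 241 and 221 CPM in CTI-2 libraries 1 to 3, against 216, 215 and 215 CPM in controls 1 to 3. The controls lay within 2 CPM of each other and below every CTI-2 library. The log2 fold change was 0.14, with an SE of 0.106 and a 95% interval of -0.08 to 0.35 (edgeR, adjusted p = 0.456). CCND1 (chr11:69641087-69654474, plus strand), the D cyclin best known from breast cancer, had 7, 11 and 5 counts with CTI-2 and 10, 2 and 4 counts in controls, which was 2.22 to 3.71 CPM and 0.509 to 3.85 CPM. CCND2 (chr12:4273772-4305350, plus strand) had 0 counts in all CTI-2 libraries and 1 count in all controls together, and the counting intervals reached up to 1.17 to 1.67 CPM in the libraries with 0 counts. CCND1 and CCND2 did not pass the filter on low counts and were not tested.

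CCND3 made up 98.8 ± 0.302% of D cyclin counts with CTI-2 and 99.04 ± 0.716% in controls (SD, n = 3 each; exact permutation test, p = 0.8). The summed level of the D cyclins was 228, 244 and 223 CPM with CTI-2 and 219.9, 216 and 217 CPM in controls. The groups did not overlap (exact permutation test, p = 0.1, the smallest p that 3 against 3 libraries allow). Because CCND3 made up nearly all of this sum, the test repeats the separation of CCND3 and says nothing more about the D cyclins. CCND1 overlaps LTO1 on the opposite strand, which had 15 to 25 counts with CTI-2 and 18 to 25 counts in controls, and CCND2 lies within the span of AC008012.1 on the same strand, which had 3 to 7 counts with CTI-2 and 2 to 5 counts in controls. No source used here says how reads in such overlaps were counted, so the low counts of CCND1 and CCND2 are uncertain. Genes of high count have overlaps too. On the opposite strand, CDK4 overlaps TSPAN31 and MARCH9, which had rows in the table of gene counts, and CCND3 overlaps AL513008.1, which had none. The part of overlap in these levels was not tested.

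RB1 (chr13:48303726-48599436, plus strand), the substrate of these kinases, was low. It had 17, 10 and 6 counts in CTI-2 libraries 1 to 3 and 17, 16 and 17 counts in controls 1 to 3, or 5.39, 3.37 and 2.72 CPM with CTI-2 and 6.55, 4.07 and 7.23 CPM in controls. The groups overlapped, since CTI-2 library 1 was above control 2. The 6 counts of CTI-2 library 3 alone allow 1.00 to 5.91 CPM. The log2 fold change was -0.49, with a 95% interval of -1.22 to 0.25 (edgeR, adjusted p = 0.433), and a difference was not detectable at this depth. RB1 also overlaps RCBTB2 on the opposite strand, which had 9 to 14 counts with CTI-2 and 10 counts in each control. Its low count is therefore uncertain for the same reason as those of CCND1 and CCND2.

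**Figure D2:**
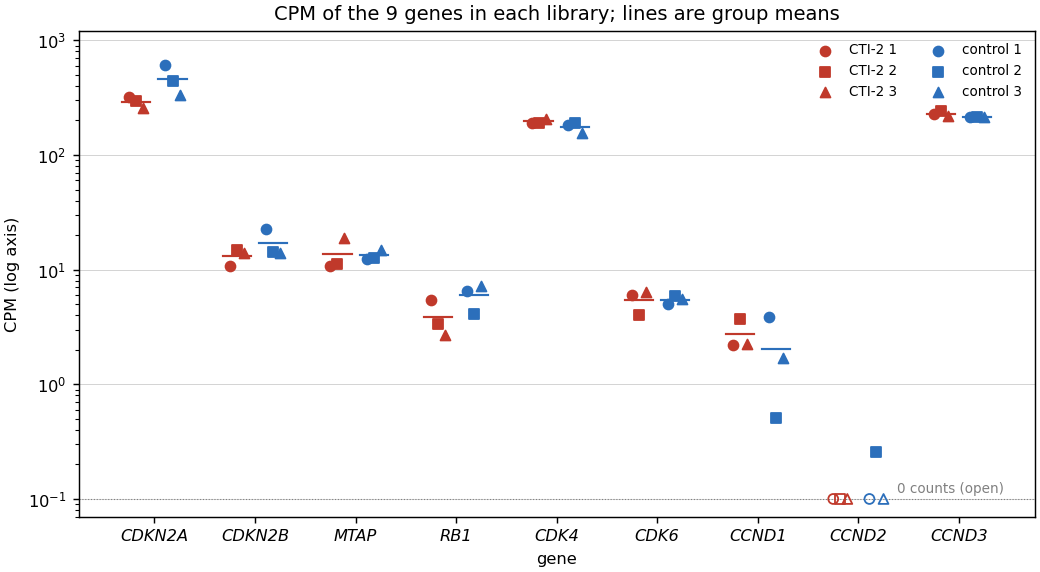
CPM (log axis) of the 9 genes in each library, with CTI-2 libraries in red at the left and controls in blue at the right of each gene, marker shapes for libraries 1 to 3, lines for group means and open markers for 0 counts. CDKN2A, CDK4 and CCND3 lie between 155 and 612 CPM, and the other 6 genes lie below 23 CPM.

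Of the 7 tested genes, 0 passed the threshold of 0.05 on edgeR's adjusted p, where 8.03% of all tested genes did, and 1 (CDKN2A) was at an unadjusted p under 0.05. With DESeq2, which gave 5 of the 7 an adjusted p, the count was also 0, and with limma-voom it was 1, CDKN2A. CPM did not overlap between the groups for CDKN2A, CDK4 and CCND3, which is 3 of 7 tested genes, against 28.8% of all tested genes. Of these, CDKN2A was lower and CDK4 and CCND3 were higher with CTI-2. The counts of CDKN2A for each count of CDK4 and CDK6 together were 1.63, 1.51 and 1.196 in CTI-2 libraries 1 to 3, against 3.28, 2.27 and 2.09 in controls 1 to 3. This ratio of an inhibitor gene to its target genes averaged 1.44 ± 0.223 with CTI-2 and 2.55 ± 0.641 in controls (SD, n = 3 each) and did not overlap between the groups (exact permutation test, p = 0.1, the smallest it can give). The ratio was computed with the values of its parts known. Its separation follows from those of CDKN2A and CDK4, so the test gives no separate evidence.

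**Figure D3:**
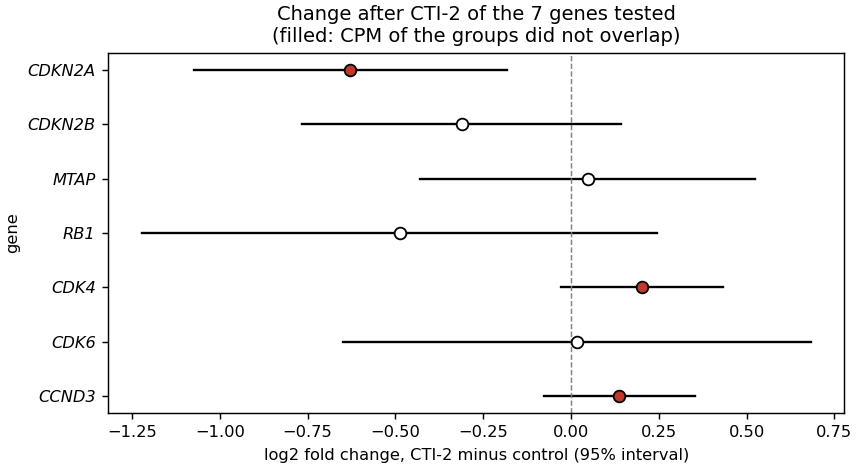
Log2 fold change, CTI-2 minus control, of the 7 tested genes (points) with 95% intervals (lines), filled where the CPM of the groups did not overlap. The interval of CDKN2A runs from -1.07 to -0.18, and those of the other 6 genes include 0.

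To set levels of different genes side by side, each mean CPM was also divided by the gene's annotated transcript length in kilobases. A long-read count may not scale with transcript length, so the order by CPM is given as well. Per kilobase, CDKN2A came first, at 356 ± 40.8 CPM per kb with CTI-2 and 569.5 ± 171 CPM per kb in controls (SD, n = 3 each). That placed it at rank 385 with CTI-2 and rank 244 in controls among 14408 genes with a length. CDK4 and CCND3 followed and overlapped each other, CDK4 at 119 ± 5.54 CPM per kb with CTI-2 and 106 ± 10.6 CPM per kb in controls, and CCND3 at 111 ± 5.05 CPM per kb with CTI-2 and 104 ± 0.311 CPM per kb in controls. CDKN2B came next at 5.54 ± 0.8996 CPM per kb with CTI-2 and 7.13 ± 2.08 CPM per kb in controls, above MTAP at 2.47 ± 0.845 CPM per kb with CTI-2 and 2.41 ± 0.251 CPM per kb in controls. The library ranges of CDKN2A, of the pair of CDK4 and CCND3, of CDKN2B and of MTAP did not overlap with one another in either group on this scale. CCND1, CDK6 and RB1 were between 0.827 and 1.124 CPM per kb with CTI-2 and between 0.832 and 1.29 CPM per kb in controls, and neighbours in that order overlapped in both groups. By CPM, not divided by length, CDKN2A was again first of the 9 genes, at rank 573 with CTI-2 and rank 337 in controls among all 16362 genes. By CPM the libraries of CCND3 were all above those of CDK4 in each group, and the libraries of CDKN2B and MTAP overlapped in each group, so the order within these pairs rests on the division by length. The annotated length stands in for the length of the molecules read, which was not measured here. CDKN2A has the shortest annotated transcripts of the 9 genes, with a median of 814 bases. CDK4 at 1650 bases and CCND3 at 2066 bases come next, and the other genes have 2385 to 6538.5 bases. The genes of highest CPM are thus also those of the shortest annotated transcripts. The part of transcript length in these levels was not tested.

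The neighbourhood of CDKN2A was counted on both sides. Between PLIN2 and C9orf72 (chr9:19108375-27573866), GENCODE 29 places 125 genes, 42 of them protein-coding. A row in the table was present for 23 genes, all of them protein-coding. The non-coding genes and pseudogenes of the window had no row, so their levels are not known here. The nearest gene counted in every library on the side of MTAP, KLHL9, a ubiquitin ligase adaptor gene, had 32, 27 and 18 counts with CTI-2 and 20, 37 and 24 counts in controls. The nearest on the side of CDKN2B, DMRTA1, a gene of a family of DNA-binding proteins, had 18, 14 and 10 counts with CTI-2 and 21, 18 and 10 counts in controls. CDKN2A, CDKN2B and MTAP thus lay between genes with counts in all 6 libraries. Further out, RPS6, a ribosomal protein gene, was at 3639 to 3680 CPM with CTI-2 and 3408 to 4050 CPM in controls, CAAP1 at 29.4 to 33.6 CPM with CTI-2 and 25.0 to 38.9 CPM in controls, and PLAA at 16.5 to 19.0 CPM with CTI-2 and 21.1 to 25.5 CPM in controls. MLLT3, IFT74, MOB3B and C9orf72 were between 1.93 and 11.9 CPM in every library, and DENND4C, ACER2, SLC24A2, HACD4, IFNE, ELAVL2 and TUSC1 were at or below 4.72 CPM in every library.

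Of 28 listed neighbours, 18 were in the table and 11 were tested, and their median log2 fold change was 0.02, against -0.01 for all tested genes. Among the 11, 1 was higher and 1 was lower after CTI-2, where 3.39% and 4.64% of all tested genes were. PLIN2, which encodes a protein that coats lipid droplets, was at 121, 127 and 130 CPM with CTI-2 and 74.0, 77.4 and 72.8 CPM in controls, with a log2 fold change of 0.80 (edgeR, adjusted p = 2.02e-05). FOCAD, the focadhesin gene, was at 19.7, 19.9 and 13.6 CPM with CTI-2 and 31.2, 35.6 and 58.7 CPM in controls, with a log2 fold change of -1.14 (edgeR, adjusted p = 0.00107). Neither gene's groups overlapped. Between FOCAD and CDKN2A the tested genes were KLHL9 and MTAP, which had log2 fold changes of 0.06 and 0.05 and did not pass the test.

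**Figure D4:**
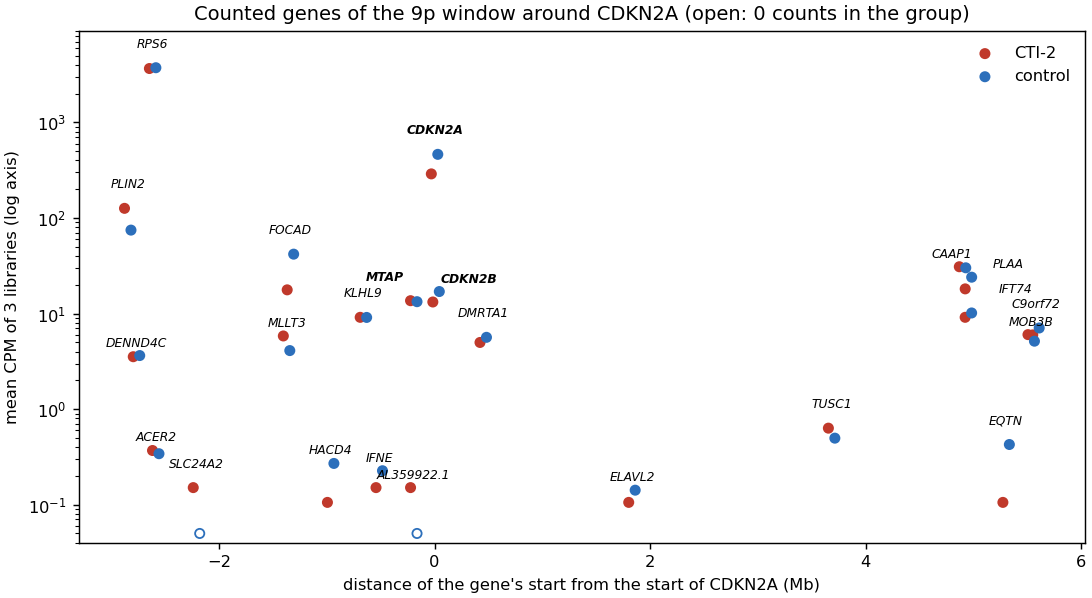
Mean CPM (log axis) of the genes in the count table between PLIN2 and C9orf72, by the distance in Mb of each gene's start from the start of CDKN2A, with CTI-2 in red just left of control in blue and open points for groups with 0 counts. CDKN2A stands at 289 CPM with CTI-2 and 464 CPM in controls between neighbours that are mostly below 43 CPM, and PLIN2 and FOCAD are the neighbours that passed the test.

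The other inhibitors of cyclin-dependent kinases were all counted, and 1 of 5 passed the test, as a higher gene, against 3.39% of all tested genes. CDKN1A, which encodes the inhibitor p21, was at 363, 327 and 305 CPM with CTI-2 and 256, 242 and 287 CPM in controls. Its log2 fold change was 0.40 with an SE of 0.109 (edgeR, adjusted p = 0.0179), and the CTI-2 libraries were all above the controls. The call was lost without control 1 (0.37, edgeR adjusted p = 0.0933), without CTI-2 library 1 (0.33, adjusted p = 0.160) and without CTI-2 library 2 (0.42, adjusted p = 0.0722). CDKN1B, CDKN1C, CDKN2C and CDKN2D, which encode p27, p57, p18 and p19, had overlapping groups and log2 fold changes of -0.04 to 0.23. The median of the 5 genes was 0.10.

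Downstream of RB1, 12 genes of RB relatives, E2F factors and their DP partners were listed, of which 11 were tested, 0 were higher and 1 was lower, where 4.64% of all tested genes were lower. That gene was E2F7, a repressor of the E2F family, with 5, 6 and 2 counts with CTI-2 and 26, 15 and 11 counts in controls. Its log2 fold change was -1.86 with an SE of 0.466 (edgeR, adjusted p = 0.00987), and without control 1 the call was lost (-1.37, edgeR adjusted p = 0.145), while DESeq2 gave it no adjusted p. E2F6, E2F3, TFDP2, E2F1 and RBL2 had log2 fold changes of -0.55, -0.46, -0.71, -0.36 and -0.35 and did not pass the test. The other 5 tested genes, RBL1, TFDP1, E2F8, E2F5 and E2F4, were above 0, at 0.01 to 0.13, and did not pass either. The median of the 11 genes was -0.35.

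Of 20 genes that E2F factors switch on for S phase, 19 were in the table and 18 were tested, of which 0 were higher and 1 was lower, where 3.39% and 4.64% of all tested genes were. It was RRM2, a subunit of the enzyme that makes deoxynucleotides, at 55.8, 71.1 and 69.7 CPM with CTI-2 and 96.7, 88.1 and 91.1 CPM in controls. Its log2 fold change was -0.44 (edgeR, adjusted p = 0.0212), and the call was lost in DESeq2 (-0.42, adjusted p = 0.084), without control 1 (-0.42, edgeR adjusted p = 0.0819) and without CTI-2 library 1 (-0.33, edgeR adjusted p = 0.176). The other tested targets, among them PCNA, MCM2 to MCM7 and TYMS, ranged from -0.37 to 0.21, and the median of the 18 was -0.02.

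Around the next kinase, CDK2, 12 genes were listed and 9 tested, and 0 passed edgeR's test, DESeq2 or limma-voom. Of all tested genes, 8.03% passed edgeR's test. At an unadjusted p under 0.05 in edgeR stood 0 of the 9, against 23.9% of all tested genes. The median log2 fold change of the 9 was 0.07. The members of highest level were CCNH, CDK7 and CCNA2. CCNH, the cyclin of the kinase that activates other cyclin-dependent kinases, was at 104, 99.8 and 115 CPM with CTI-2 and 99.4, 96.2 and 91.5 CPM in controls. CDK7, its kinase, was at 66.9, 83.6 and 68.4 CPM with CTI-2 and 83.6, 74.3 and 52.3 CPM in controls. CCNA2, the cyclin of S phase, was at 61.8, 62.0 and 73.4 CPM with CTI-2 and 69.3, 57.5 and 67.7 CPM in controls. Across the 9 genes the log2 fold changes ran from -0.11 to 0.39, and 1 of the 9, CCNH, had groups that did not overlap, against 28.8% of all tested genes.

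Of the genes that handle CDK4 or the D cyclins, 1 of 4 was lower and 0 were higher, against 4.64% lower and 3.39% higher among all tested genes. AMBRA1, which directs the ubiquitin ligase that breaks down D cyclins, was at 10.5, 11.1 and 7.70 CPM with CTI-2 and 19.6, 15.3 and 17.4 CPM in controls, and its log2 fold change was -0.75 with an SE of 0.223 (edgeR, adjusted p = 0.0291). Its call was lost in 9 of 19 alternative settings, 5 of which left out a library, with adjusted p of 0.0502 without control 3 to 0.144 without CTI-2 library 3 among those 5. CDC37, a chaperone partner that loads CDK4, GSK3B, a kinase that marks cyclin D1 for breakdown, and MYC had log2 fold changes of -0.17, -0.54 and 0.11 and did not pass the test. The median of the 4 was -0.35.

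Of 13 genes known to act on CDKN2A transcription, 12 were in the table and 10 were tested. Of the 10, 0 passed the test, where 8.03% of all tested genes did, and the median log2 fold change was -0.27. Groups did not overlap for 5 of the 10, against 28.8% of all tested genes. EZH2, the histone methyltransferase of the Polycomb complex that silences CDKN2A in many cells, was at 78.0, 73.5 and 63.9 CPM with CTI-2 and 89.0, 87.3 and 116 CPM in controls, with no overlap and a log2 fold change of -0.38 (edgeR, adjusted p = 0.0547). ETS2, an activator of CDKN2A, was at 75.8, 87.6 and 73.8 CPM with CTI-2 and 85.1, 65.4 and 97.9 CPM in controls. EED, the partner of EZH2, was at 75.8, 67.4 and 73.4 CPM with CTI-2 and 67.8, 57.8 and 70.6 CPM in controls. Of the 10 genes, 4 stood at an unadjusted p under 0.05 in edgeR's test, against 23.9% of all tested genes, 0 passed in DESeq2 or limma-voom, and 1, EZH2, passed in limma on log2(CPM + 1).

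Around MTAP, 14 genes of methionine salvage and of the enzymes that methylthioadenosine affects were listed, 12 were tested, 0 were higher and 1 was lower, where 4.64% of all tested genes were lower. The median log2 fold change of the 12 was 0.01, with 6 positive and 6 negative. Groups did not overlap for 7 of the 12, against 28.8% of all tested genes. At an unadjusted p under 0.05 in edgeR's test stood 4 of the 12, against 23.9% of all tested genes. ENOPH1, which encodes a later enzyme of the salvage path, was at 6.34, 7.41 and 11.3 CPM with CTI-2 and 38.9, 18.6 and 16.6 CPM in controls. Its log2 fold change was -1.53 with an SE of 0.336 (edgeR, adjusted p = 0.0150), and the call was lost without CTI-2 library 1 (-1.36, edgeR adjusted p = 0.0509) and without CTI-2 library 2 (-1.46, edgeR adjusted p = 0.0599). MAT2A, which makes S-adenosylmethionine, was at 176, 189 and 202 CPM with CTI-2 and 263, 176 and 313 CPM in controls and did not pass the test. PRMT5, the arginine methyltransferase that cells without MTAP are known to depend on, had 4, 3 and 0 counts with CTI-2 and 1, 0 and 1 counts in controls. It was below the filter and overlaps an antisense gene in the annotation, so its low count is uncertain.

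**Figure D5:**
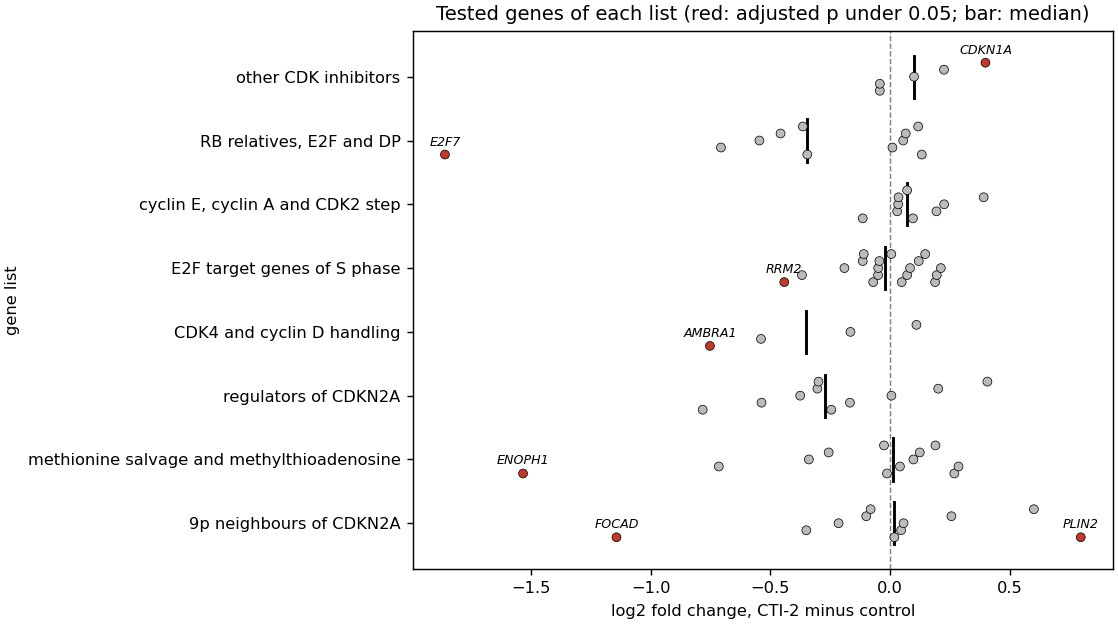
Log2 fold change, CTI-2 minus control, of each tested gene (points) in 8 gene lists (rows), with red points for genes at an adjusted p under 0.05 and bars for list medians. Medians lie between -0.35 and 0.10, and no list has more than 2 genes past the threshold.

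Of the mesenchymal markers, 19 were tested, of which 1 was higher and 2 were lower after CTI-2, against 3.39% higher and 4.64% lower among all tested genes. Their median log2 fold change was 0.17. ANXA1 was higher, with a log2 fold change of 0.35 (edgeR, adjusted p = 0.0497), a call lost in 11 of 19 alternative settings. CXCL8 (-1.19, edgeR adjusted p = 0.00511) and TGFBI (-1.15, adjusted p = 0.00658) were lower, and the call of TGFBI was lost without control 2 (-1.21, edgeR adjusted p = 0.0706) and without control 3 (-1.06, edgeR adjusted p = 0.102). None of the 4 tested luminal markers (EPCAM, CLDN4, KRT8 and KRT18) passed edgeR's test, DESeq2 or limma-voom. Neither did the tested markers of other cell types (PECAM1 and COL1A1), where 8.03% of all tested genes passed edgeR's test. At an unadjusted p under 0.05 in edgeR stood 7 of 19 mesenchymal, 1 of 4 luminal and 0 of 2 other markers, against 23.9% of all tested genes. Groups did not overlap for 9, 3 and 0 of them, against 28.8% of all tested genes. The part of these marker levels in the values of CDKN2A was not tested.

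Across the 6 libraries, 4 of the 5 tested genes with log2(CPM + 1) most like that of CDKN2A were RPS6KA5, CST3, UBA2 and ARL15, with Pearson correlations of 0.988, 0.987, 0.980 and 0.979. In all, 31 of the other 9847 tested genes were over 0.95. The measure is a description over 6 libraries in 2 groups, and these genes were picked as the highest of all compared. RPS6KA5, at 4.08 to 7.70 CPM, and ARL15, at 3.17 to 6.55 CPM, had low levels in every library. Neither of them passed the test (edgeR, adjusted p = 0.427 and 0.290). CST3, the cystatin C gene, ran alongside CDKN2A with 24.4, 22.6 and 17.7 CPM in CTI-2 libraries 1 to 3 and 42.8, 29.8 and 24.7 CPM in controls 1 to 3, and UBA2, a subunit of the enzyme that activates SUMO, did so with 87.2, 89.99 and 82.9 CPM with CTI-2 and 145, 113 and 100.4 CPM in controls. None of the other 6 tested genes of the locus and the G1 step was among the closest: CDKN2B was at 0.73, RB1 at 0.58, CDK6 at -0.14, CDK4 at -0.28, MTAP at -0.36 and CCND3 at -0.50.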

How the data were processed

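The authors deposited a table of read counts (whole numbers, 1 row per gene, 6 libraries) and a table of CPM, which differed from the counts rescaled to 1000000 per library by at most 4.4e-11. Per the labels' protocols, RNA was extracted in Trizol and made into libraries with an Oxford Nanopore cDNA-PCR kit, and the submitters' processing notes name minimap2. The aligner's version, build and annotation, the counter and any use of strand were not given in the sources used here. Nothing says that libraries came from separate cultures, so p-values may measure technical spread only. Reads carry no molecular identifiers.

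Groups follow the labelled agent. The filter was filterByExpr at its defaults (9848 genes kept), and counts were scaled by TMM and tested in edgeR 4.0.16 (quasi-likelihood test with robust estimation, R 4.3.3), CTI-2 minus control, with Benjamini-Hochberg adjustment over all tested genes and a threshold of 0.05. Shares and ratios were compared by two-sided exact permutation tests in SciPy 1.17.1. Gene positions, transcripts and sequences are from GENCODE 29 on GRCh38, and the deposited length of all 9 genes equalled the GENCODE span (end minus start). Transcript length and GC content are medians over basic transcripts and were available for 9218 tested genes.

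Alternatives were scaling by library totals or by DESeq2's size factors, no filter, at least 20 counts in 3 libraries, the test of DESeq2 1.42.0, limma-voom, and limma 3.58.1 on log2(CPM + 1) or log2(CPM + 0.5), an adjusted p of 0.01, a block for the replicate number, each library left out in turn, removing each library's trend with transcript length (lowess span 0.3), and thinning to the smallest total. Removing the trend with GC content was added after seeing the data. The 9 genes and all lists were chosen with earlier results of these data known. Genes named were the 9 genes, the called members of each list (or up to 3 of highest CPM where none was called), 9p neighbours with a count and the 5 genes most like CDKN2A. VIM, CDH1, PRMT5 and other genes named beyond this rule were chosen after their values were seen. CCN1 and CCN2 were matched by identifier. Libraries of a group differed by more than sampling noise in every pair (chi-square over its degrees of freedom, 1.68 to 6.03). Some genes and sequences that these rules took are not reported here.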

Additional observations from a re-analysis of the deposited data

How the results depend on the processing

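All alternatives kept the sign of CDKN2A, CDKN2B, RB1, CDK4 and CCND3. CDKN2A passed the test with no low-count filter (-0.62), limma-voom (-0.59) and the replicate block (-0.60, adjusted p = 0.00016). Leaving out 1 library gave -0.83 (without control 3) to -0.40 (without control 1), with adjusted p from 5.8e-06 (without control 3) to 0.336 (without control 2); removing the trend with transcript length gave -0.76 (adjusted p = 0.124), and DESeq2 gave -0.61 (adjusted p = 0.146). Under each of the first 3 settings 1 of the 9 genes was called, and 0 to 1 were when 1 library was left out.

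MTAP and CDK6 sat so near 0 that their sign changed: MTAP was -0.0061 with limma-voom, -0.0080 on log2(CPM + 1), -0.0096 on log2(CPM + 0.5) and -0.23 to 0.19 with 1 library left out, and CDK6 was -0.0237 with library totals, -0.0086 with limma-voom, -0.0160 on log2(CPM + 1), -0.0192 on log2(CPM + 0.5), -0.0361 after thinning, -0.0126 with the GC trend removed and -0.0823 to 0.21 with 1 library left out. The cause was not tested.

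Over all genes, 504 were called by DESeq2 (of 7163 with an adjusted p), 306 at an adjusted p of 0.01, and 400 to 1610 with 1 library left out. In the reported fit, 791 of 9848 tested genes (8.03%) were called, and 10 of the 108 tested genes over all lists. Calls over all lists numbered 6 with DESeq2 (of 82 with an adjusted p) and 5 at an adjusted p of 0.01. They numbered 5 to 21 with 1 library left out and 13 with the replicate block. Replicate numbers of the groups did not pair: deviations of same-numbered libraries correlated at -0.05, 0.008 and -0.12. The shares of CCND3 and CDK4 moved by less than the spread between libraries. Depth limits RB1, CDK6, CCND1 and CCND2, which had at most 23 counts in any library.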
